A study of Sesamum indicum with 195 samples.

Results

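The response of EG roots to the first 2 h of waterlogging was taken from 6 of the 195 root libraries of a sesame (Sesamum indicum) time series. These were the 3 EG libraries at 2 h of waterlogging and the 3 EG libraries at 0 h, which were taken here as control. EG is the genotype Ezhi No.2, described as sensitive to waterlogging, and ZZM2541 (R2G) is the tolerant genotype of the series. Flowering plants grew in pots in a greenhouse, and waterlogged pots stood in water that rose above the soil surface. The 3 replicates of a group came from single plants of separate pots. No control was sampled at 2 h, and the nearest control libraries were taken at 0 h and, from plants kept unflooded, at 4 h. The comparisons below also use the EG libraries at 4 h of waterlogging and at 4 h of control, and the R2G libraries at 2 h of waterlogging and at 0 h, with 3 libraries each. Elapsed time, hour of the day and water are therefore joined in the comparison of 2 h with 0 h, and they cannot be told apart within it. The labels record no sampling or library batch, and a difference in handling between the hours cannot be told apart from these either.

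Water in the soil slows the supply of oxygen to roots, and root cells then make less ATP by respiration. Plants are known to answer with faster glycolysis and with fermentation, which regenerates the NAD+ that glycolysis needs, while much costly synthesis is held back. Transcripts of this response are known to accumulate early in flooded roots of other plants. Transcripts of many plant genes also follow the time of day, so that unflooded roots change over the same hours. The gene table carries RefSeq gene identifiers. The RefSeq table of the same genome assembly (S_indicum_v1.0) matched all 20271 of them and placed all but 805 on a linkage group, but gave a descriptive name to 15. Fermentation enzymes could not be picked out by name, and no marker of root cell types could be used to check the tissue label. Genes are given by identifier and position, and a role is stated only for those that RefSeq names.

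Expression is in TPM, for which read counts are divided by gene length and every library is scaled to the same total. TPM holds no record of the sequencing depth of a library and read counts were not used here, so no counting interval is given. The deposited values summed to between 999278 and 999693 TPM in these 6 libraries. The share of the 10 most abundant genes was 6.19% to 6.72% in the EG 2 h libraries, against 2.74% to 3.66% in the EG 0 h libraries. Between 17092 and 17933 genes reached 1 TPM in the EG 2 h libraries, against 18193 to 18543 in the EG 0 h libraries. The 3 EG 2 h libraries did not lie equally far from 0 h: their mean correlation with the EG 0 h libraries on log2(TPM + 1) was 0.889 for replicate 1, 0.849 for replicate 2 and 0.821 for replicate 3. In bulk RNA of a tissue, fewer cells of a type and less RNA per cell cannot be told apart.

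Waterlogging for 2 h was set against 0 h with limma on log2(TPM + 1) over the 18178 genes with a mean of at least 1 TPM across the series. Calls required an adjusted p under 0.05 by Benjamini and Hochberg's method together with a change of 1 or more, up or down, on the log2 scale. Of the genes tested, 1209 rose (6.65%) and 4788 fell (26.3%), together 5997 (33%). The median log2 fold change was 1.60 for the genes that rose and -1.41 for those that fell. A change of at least 2 on the log2 scale was reached by 373 rising and 823 falling genes, and one of at least 4 by 47 rising and 19 falling genes. At least 3 was reached by 138 rising and 120 falling genes. Rises were thus more numerous at the steepest thresholds, although falls outnumbered rises in all. On log2(TPM + 1) a fall cannot exceed what the level of a gene at 0 h allows, and a rise has no such limit. That level had a median of 23.0 TPM over the falling genes, and the part of this limit in the counts was not tested. Of the called genes, 74 stood under 1 TPM in all 3 libraries at 0 h and at 1 TPM or more in all 3 at 2 h, and 120 did the opposite. TPM ranges of the groups did not overlap for 1181 of the rising and 4693 of the falling genes, and for 67.2% of all genes tested.

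TPM is a share of a fixed total, and the balance of rises and falls depended on that scale. Rising genes held 27.6%, 33.3% and 34.2% of all TPM in the 3 EG 2 h libraries, against 8.61%, 9.43% and 6.99% in the EG 0 h libraries. Falling genes held 11.4%, 8.16% and 7.02% at 2 h, against 26.2%, 25.4% and 28.6% at 0 h. The 10 genes of largest gain took up 5.32% of all TPM between 0 h and 2 h, and the 100 of largest gain 15.1%. The median log2 fold change over all genes tested was -0.57 as deposited. When each library was instead scaled by the median of its gene ratios to the average library, the median was -0.03, and 2217 genes rose and 1789 fell. All 1789 of these falls and 1208 of the 2217 rises had the same call on the deposited scale, and no gene was called in opposite directions. All 5997 genes called on the deposited scale kept their sign after scaling. The kept signs and the absence of opposite calls were settled beforehand, because this scaling raises changes by less than the call threshold of 1. It could only enlarge a rise. Of the rises, 1208 of 1209 were thus called on both scales, while 2999 of the falls were called on the deposited scale only.

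**Figure D1:**
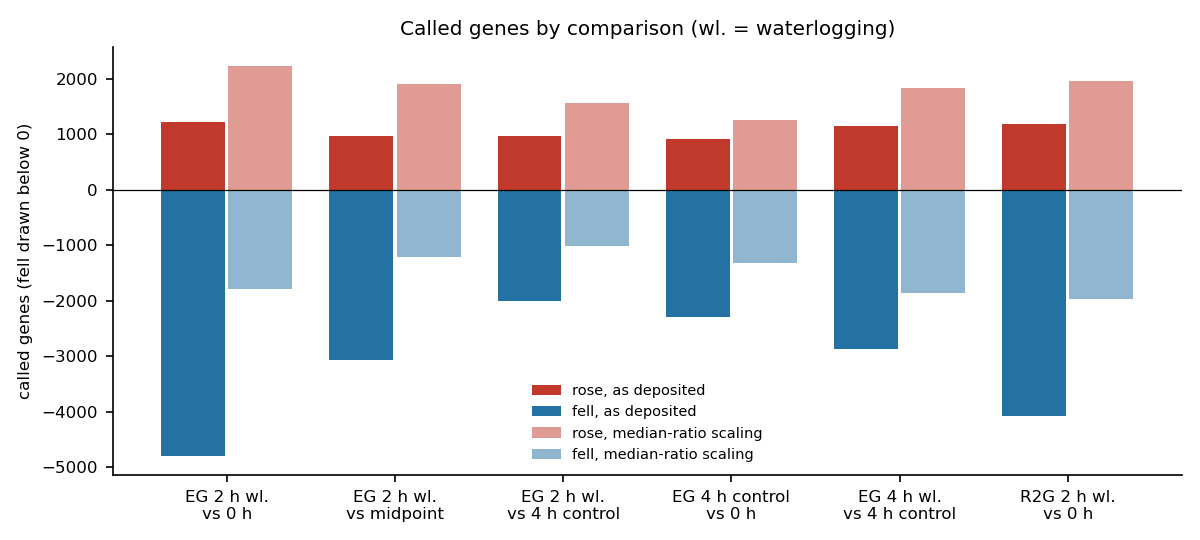
Number of called genes (y axis; genes that fell are drawn below 0) in 6 comparisons of 3 against 3 libraries, or against the midpoint of 2 control groups; dark bars use TPM as deposited and pale bars median-ratio scaling. In EG at 2 h against 0 h, 1209 genes rose and 4788 fell as deposited, and 2217 rose and 1789 fell after scaling.

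To see how much of this change also occurred in unflooded roots, the 4 h control was compared with 0 h. Between EG 4 h control and EG 0 h, 3207 genes were called (17.6%), 909 that rose (5%) and 2298 that fell (12.6%). After median-ratio scaling, 1261 rose and 1325 fell. Of the 5997 genes called at 2 h of waterlogging, 2114 (35.3%) were called in the same direction in the 4 h control and 21 in the opposite direction. The shared genes were 544 of the 1209 rising genes (45.0%) and 1570 of the 4788 falling genes (32.8%). Both comparisons use the same 0 h libraries, so errors in those libraries enter both counts. With that scaling, 1542 of 4006 genes were shared, 839 that rose and 703 that fell. Without regard to a call, 88.8% of the rising genes were also higher and 91.2% of the falling genes also lower in the 4 h control than at 0 h, against 31.2% and 68.8% of all genes tested.

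Most of the shared genes were not called between the flooded roots at 2 h and the 4 h control. Set against the 4 h control, EG 2 h waterlogging gave 961 genes that were higher (5.29%) and 2010 that were lower (11.1%), 16.3% in all. Scaled by median ratios, 1559 were higher and 1012 lower, so that the larger side changed. The 2971 calls also changed with the libraries used. There were 3892 without replicate 1 of both groups, 856 without replicate 2 and 1414 without replicate 3, settings that leave fewer libraries in each group. When only the EG 2 h replicate 1, 2 or 3 was left out, there were 4135, 2513 and 2373. The counts that follow use the 2971 calls. Of the 544 shared rising genes, 97 were also higher at 2 h of waterlogging than in the 4 h control, 18 were lower and 429 were not called. Of the 1570 shared falling genes, 125 were also lower than in the 4 h control, 26 were higher and 1419 were not called. A gene that was not called may still differ by less than this test detects.

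A control for 2 h can be approximated by the midpoint of 0 h and the 4 h control on the log2 scale, which assumes an even course between them. Against the midpoint, 957 genes were higher (5.26%) and 3075 lower (16.9%) at 2 h of waterlogging, 22.2% in all, and these included 783 of the 1209 rising and 2873 of the 4788 falling genes. With median-ratio scaling, 1895 were higher and 1206 lower than the midpoint. A stricter set was called in the same direction against 0 h, the midpoint and the 4 h control, and was not called between the controls. The midpoint difference is the mean of the differences from 0 h and from the 4 h control. All use the same EG 2 h libraries, so the midpoint is not a separate check. It held 344 of the rising genes (28.5%) and 1307 of the falling genes (27.3%), and 721 and 443 genes after median-ratio scaling. The size of this set changed with the libraries used. It was 400 rising and 1871 falling genes without replicate 1 of every group, 151 and 370 without replicate 2, and 184 and 530 without replicate 3. These settings leave fewer libraries in each group, so lower power and the libraries themselves cannot be told apart. When only the EG 2 h replicate 1, 2 or 3 was left out, it was 431 and 2071, 297 and 1033, and 283 and 879.

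The steepest rises led to high levels within 2 h. LOC105162558 (linkage group 1, 10934582 to 10935991) stood at 374, 411 and 399 TPM in the EG 2 h libraries, against 1.38, 1.19 and 4.00 TPM at 0 h. The groups lay far apart, and the gene ranked 389 in mean TPM at 2 h, against rank 17121 at 0 h. Its log2 fold change was 7.06 (standard error SE 0.30, limma adjusted p = 3.7e-05), and 7.50 after median-ratio scaling. The 4 h control libraries, at 74.9, 68.3 and 118 TPM, were also above 0 h, by 4.85 on the log2 scale, and below all flooded libraries. LOC105172599 (linkage group 10, 14828723 to 14829676) had 152, 286 and 249 TPM at 2 h of waterlogging, against 0.209, 0.356 and 3.79 TPM at 0 h. Its log2 fold change was 6.80, and 34.0 ± 10.9 TPM (SD, n = 3) were measured in the 4 h control. LOC105175178 (linkage group 12, 2375581 to 2378941) had 142, 163 and 149 TPM at 2 h, against 0.626, 1.37 and 0.948 TPM at 0 h. This was a rise of 6.28 on the log2 scale with little spread in either group, and the 4 h control had 10.5, 17.6 and 35.3 TPM. All 3 genes were called higher at 2 h of waterlogging than in the 4 h control.

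LOC105159057 (linkage group 3, 21083167 to 21088325) combined a steep rise with a high level. It had 672, 1384 and 1662 TPM at 2 h of waterlogging, against 19.1, 14.6 and 17.6 TPM at 0 h. The log2 fold change was 6.01, and the flooded libraries were also above the 147, 315 and 192 TPM of the 4 h control. LOC105161839 (linkage group 5, 3181272 to 3182759) had 324, 251 and 129.9 TPM at 2 h, against 0.470, 0.891 and 11.9 TPM at 0 h. It rose by 6.06 on the log2 scale, and replicate 3 was the lowest at 2 h and the highest at 0 h. LOC105169213 (linkage group 8, 18042894 to 18043604) had 589, 856 and 614 TPM at 2 h, against 1.64, 1.84 and 38.0 TPM at 0 h. Its rise of 6.67 was the least precise of these (SE 0.92), as 1 library at 0 h stood above the others. In the 4 h control this gene had 239, 404 and 518 TPM, below all flooded libraries, and the difference of 0.87 between EG 2 h and the 4 h control was not called (limma adjusted p = 0.052).

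The genes most abundant in flooded roots rose from different levels. LOC105170794 (linkage group 9, 6393455 to 6400720) ranked 1 in mean TPM at 2 h of waterlogging, with 7820.4, 9834 and 10054 TPM, against 2925, 3040.2 and 1453 TPM at 0 h. It was already the gene of rank 8 at 0 h, and its log2 fold change was 1.97 (SE 0.38, limma adjusted p = 0.0041). LOC105173722 (linkage group 11, 9608436 to 9613393) ranked 2, with 8955, 9461 and 8579 TPM at 2 h, against 258, 238 and 396 TPM at 0 h. Its log2 fold change was 4.95. The 4 h control had 3681, 4471 and 3233 TPM, so that unflooded roots also rose, by 3.69. LOC105174592 (linkage group 11, 14850655 to 14854009) ranked 3, with 8087, 8993 and 8482 TPM at 2 h, against 225, 232 and 537 TPM at 0 h. It rose by 4.80, and stood at 3308 ± 686 TPM (SD, n = 3) in the 4 h control. All 3 genes were called higher in flooded roots than in the 4 h control, by 1.24, 1.26 and 1.39 on the log2 scale.

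Other genes rose while the 4 h control stayed near 0 h. LOC105156324 (linkage group 2, 14979383 to 14982218) had 27.1, 37.2 and 41.4 TPM at 2 h of waterlogging, against 0.119 and 0.135 TPM and a listed 0 at 0 h. The 4 h control had 2.25, 0.310 and 0.0559 TPM, so the flooded libraries were above both controls. Its difference from the midpoint was 4.74 on the log2(TPM + 1) scale (SE 0.32, limma adjusted p = 2.4e-05). At 4 h of waterlogging it had 46.4, 65.7 and 61.5 TPM, and over the later EG time points its mean ranged between 2.29 TPM at 8 h and 302 TPM at 36 h of waterlogging. The other 3 genes with the largest differences from the midpoint, LOC105162966, LOC105162918 and LOC105162915, were neighbours on linkage group 5 and are described with the runs of adjacent genes.

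**Figure D2:**
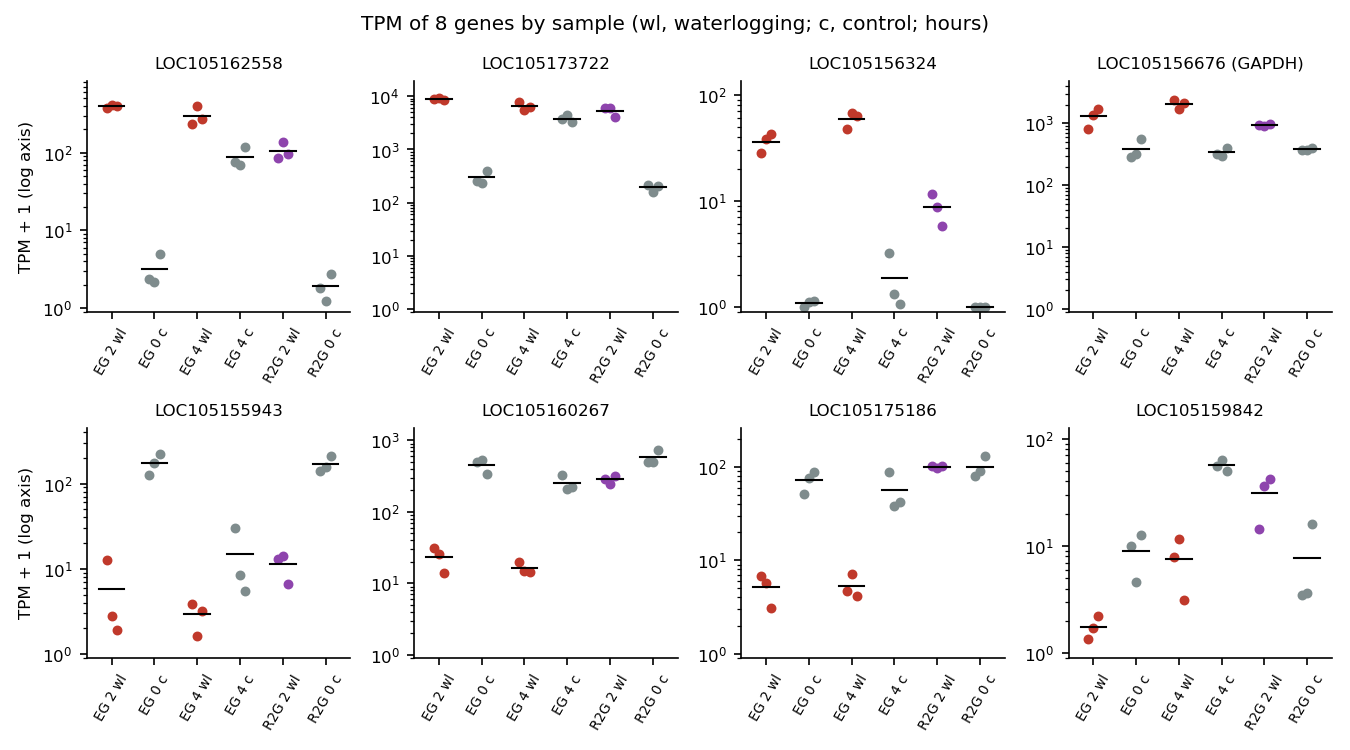
TPM + 1 (log axis) of 8 genes in 6 groups of 3 libraries (wl, waterlogging; c, control; points are libraries and bars are means). LOC105162558, LOC105173722, LOC105156324 and GAPDH were higher in EG at 2 h of waterlogging than at 0 h, and the 4 genes of the lower row were lower; LOC105175186 stayed at 95.2 to 101 TPM in flooded R2G roots.

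The 6 steepest falls were in genes that were also lower in unflooded roots by 4 h. LOC105155943 (linkage group 2, 12008434 to 12013267) had 11.6, 1.81 and 0.933 TPM at 2 h of waterlogging, against 126, 175 and 223 TPM at 0 h. Its log2 fold change was -5.39 (SE 0.63, limma adjusted p = 0.00075), and -4.86 after median-ratio scaling. The 4 h control, at 29.4, 7.39 and 4.53 TPM, overlapped with the flooded libraries. LOC105155587 (linkage group 2, 7881161 to 7884005) had 7.97, 1.88 and 1.69 TPM at 2 h, against 167, 118 and 206 TPM at 0 h, and 10.5, 5.63 and 7.91 TPM in the 4 h control. The log2 change was -5.29. LOC105173496 (linkage group 11, 7261211 to 7264743) was almost absent at 2 h, with 0.137, 0.0647 and 0.0583 TPM, against 82.1, 16.0 and 39.2 TPM at 0 h. It fell by 5.14 on the log2 scale, and the 4 h control held 2.15, 1.14 and 0.447 TPM. In each of these genes replicate 1 was the highest flooded library.

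LOC105158935 (linkage group 3, 20177383 to 20178688) had 3.16, 0.453 and 0.700 TPM at 2 h of waterlogging, against 66.9 ± 1.92 TPM (SD, n = 3) at 0 h. On the log2 scale it differed by -4.96, and the 4 h control lay within the flooded range at 2.40, 1.86 and 1.79 TPM. LOC105159105 (linkage group 3, 21609348 to 21610959) had 1.58, 0.614 and 1.17 TPM at 2 h, against 50.5, 43.2 and 54.4 TPM at 0 h. It fell by 4.59, and was also called lower than the 4 h control, by 1.32. LOC105161014 (linkage group 4, 13951433 to 13956901) showed the largest gap between flooded libraries, with 15.9, 1.36 and 0.719 TPM at 2 h, against 110.4, 109 and 114 TPM at 0 h. The log2 change was -4.78 (SE 0.75). All 6 of these genes were also called lower in the 4 h control than at 0 h, with log2 differences between -4.50 and -3.27.

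Falls in genes that were not called between the controls reached the same order of size. LOC105166438 (linkage group 7, 6514684 to 6515916) had 2.27, 3.43 and 0.641 TPM at 2 h of waterlogging, against 49.0, 65.4 and 61.2 TPM at 0 h and 43.1, 33.9 and 21.1 TPM in the 4 h control. Its difference from the midpoint was -3.93 on the log2 scale. LOC105160267 (linkage group 4, 8577270 to 8578961) was an abundant gene, with 30.1, 24.8 and 13.1 TPM at 2 h, against 488, 533 and 334 TPM at 0 h and 321, 205 and 224 TPM in the 4 h control. It stood 3.88 below the midpoint (SE 0.26, limma adjusted p = 2.4e-05). LOC105175186 (linkage group 12, 2441045 to 2443988) had 5.71, 4.66 and 2.07 TPM at 2 h, against 50.2, 74.8 and 86.5 TPM at 0 h and 87.8, 36.7 and 40.8 TPM in the 4 h control. It stood 3.62 below the midpoint. LOC105174542 (linkage group 11, 14565055 to 14566925) had 8.42, 5.82 and 0.860 TPM at 2 h, against 64.7, 48.5 and 161 TPM at 0 h and 42.9, 43.5 and 19.3 TPM in the 4 h control. It stood 3.41 below the midpoint. From 0 h to the 4 h control these genes also differed, by -0.87, -0.85, -0.43 and -1.25 in the order given. The last missed the call only by its p (limma adjusted p = 0.063). In all 4 genes every flooded library was below every library of both controls.

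Among the genes most abundant at 0 h, 2 varied widely between libraries. LOC105157575 (linkage group 1, 6869660 to 6870579) had 136, 483 and 169 TPM at 2 h of waterlogging, against 1668, 1007 and 6702 TPM at 0 h, a log2 fold change of -3.32. LOC105166719 (linkage group 7, 8904659 to 8905893) had 205, 505 and 180.2 TPM at 2 h, against 1188, 972 and 5167 TPM at 0 h, a log2 fold change of -2.77. In both genes the EG 0 h replicate 3 stood above the others, and the EG 2 h replicate 2 was the highest flooded library. LOC105168993 (linkage group 8, 16463467 to 16466236) had 1486, 783 and 851 TPM at 2 h, against 2628, 2887 and 2440.4 TPM at 0 h. Its log2 fold change of -1.41 was -0.80 after median-ratio scaling and was then not called, nor was it called without replicate 2 of both groups, at -1.17.

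RefSeq gave descriptive names to 15 genes, and 14 of them passed the filter on low values. The exception was LOC105172997 (MT), at 0.206, 0.792 and 0.408 TPM at 2 h, against 0.783, 0.921 and 1.35 TPM at 0 h. Of the 14, 4 rose, 1 fell and 9 were not called, so that 5 of 14 were called where 33% of all genes were. GAPDH, glyceraldehyde-3-phosphate dehydrogenase of glycolysis (LOC105156676, linkage group 2, 18171965 to 18174769), had 809, 1346 and 1739.7 TPM at 2 h of waterlogging, against 290.5, 314 and 549 TPM at 0 h and 317, 291 and 407 TPM in the 4 h control. On the log2 scale it differed by 1.75 (SE 0.35, limma adjusted p = 0.0046), and 1.81 against the midpoint. The groups did not overlap, and the 4 h control differed from 0 h by -0.14. At 4 h of waterlogging GAPDH had 2387, 1714 and 2128 TPM, and in R2G it rose to 926, 907 and 974 TPM at 2 h, against 372, 366 and 397 TPM at 0 h. Without replicate 2 of both groups the EG change of 1.57 was no longer called.

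The other named genes that rose were beta-actin, FAD2 and IPS. Beta-actin, a cytoskeleton gene often used as a reference in expression work (LOC105159390), had 607, 601 and 507 TPM at 2 h, against 266, 242 and 299 TPM at 0 h. The log2 change was 1.08, and 0.97, under the fold threshold, without replicate 2. The 4 h control, at 321, 407 and 431 TPM, lay between the groups, and beta-actin was not called against the midpoint, at 0.83. FAD2, a desaturase that makes linoleic from oleic acid (LOC105163532), had 18.1, 10.1 and 25.6 TPM at 2 h, against 4.33, 9.80 and 4.61 TPM at 0 h. The groups were nearly in contact, and the log2 fold change of 1.37 was not called without replicate 1 (1.14), without replicate 3 (0.94) or without the EG 2 h replicate 3 alone (1.08). IPS (LOC105176482) had 9.69, 11.7 and 19.4 TPM at 2 h, against 3.24, 4.46 and 5.89 TPM at 0 h, and 4.33, 4.08 and 3.24 TPM in the 4 h control. Its log2 fold change of 1.37 was not called without replicate 2, at 1.45.

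CYP81Q1, the cytochrome P450 of sesamin synthesis (LOC105177765), was the named gene that fell. It had 26.7, 27.1 and 19.1 TPM at 2 h of waterlogging, against 63.1, 60.8 and 137 TPM at 0 h, a log2 fold change of -1.71 (limma adjusted p = 0.0036). The 4 h control was also called lower than 0 h, by 1.34 on the log2 scale, at 34.1, 31.5 and 28.5 TPM. SOD, a superoxide dismutase (LOC105166989), had 37.2, 28.0 and 24.6 TPM at 2 h, against 43.6, 47.0 and 46.8 TPM at 0 h. Its difference of -0.62 had an adjusted p of 0.022 from limma but missed the fold threshold, and was -0.03 after median-ratio scaling. CAT, a catalase (LOC105178686), had 101, 70.9 and 99.1 TPM, against 66.8, 85.0 and 58.7 TPM, and the peroxidase LOC105177799 had 197, 154 and 149 TPM, against 191, 184 and 249.8 TPM. In both the groups overlapped. Their log2 differences were 0.36 and -0.32, and 0.96 and 0.29 after median-ratio scaling, so that the sign of the peroxidase changed. PPO, a polyphenol oxidase (LOC105176878), had under 3 TPM in every library of both groups, and 2.91, 6.82 and 5.03 TPM in the 4 h control. Its difference of -0.26 was 0.04 with that scaling and 0.25 without replicate 3 of both groups. UGT88D6 (LOC105160417) and SeMGD2 (LOC105166432), with log2 differences of 0.52 and 0.78, were not called as deposited and were called as rising after median-ratio scaling, at 1.09 and 1.03. SeMGD2 was also called without replicate 2 of both groups, at 1.06, and without the EG 2 h replicate 2 alone, at 1.10. FAD7, DGAT1 and AP3 differed by 0.30, -0.12 and -0.43 and were not called, and with median-ratio scaling the differences were 0.91, 0.47 and 0.05.

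**Figure D3:**
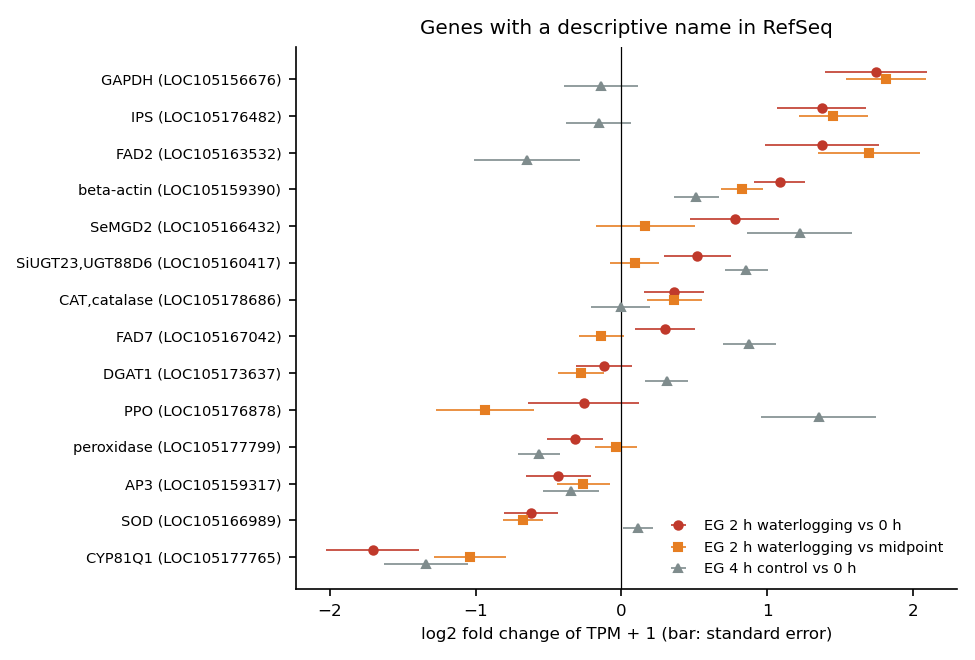
Log2 fold change of TPM + 1 (x axis; bars are standard errors, 3 libraries a group) of the 14 tested genes that RefSeq names, for EG 2 h waterlogging against 0 h, EG 2 h waterlogging against the midpoint of the controls, and EG 4 h control against 0 h. GAPDH lies at 1.75 and 1.81 in the flooded comparisons and at -0.14 in the control, and CYP81Q1 lies below 0 in all 3.

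Rising genes were placed side by side in some stretches of the genome. Of the rising genes with a further tested gene in coordinate order, whatever the strand, 15.7% were followed by another rising gene, where 6.65% of all genes rose. For falling genes the share was 31.3%, where 26.3% of all genes fell. There were 24 runs of 3 or more adjacent rising genes, and the longest held 9. The 4 longest runs were chosen after the values were seen, so their counts are a description and carry no test. Whether genes of a run have near-identical sequences was not checked, and reads of such copies may have been lost or shared, since the authors counted uniquely placed reads. The share of rising genes per linkage group lay between 4.12% (linkage group 16) and 9.21% (linkage group 12).

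The run of 9 genes on linkage group 10 between 2575002 and 2601556 (LOC105171722 to LOC105171727) consisted of short genes with spans of 690 to 769 bases. Their summed TPM was 5266, 6984 and 7490.3 in the EG 2 h libraries, against 1452, 1408 and 638 at 0 h and 2199.8, 4222 and 4569 in the 4 h control. The log2 fold changes of single genes at 2 h against 0 h lay between 1.23 and 5.07. The steepest was that of LOC105171727, with 1715, 2357 and 2524 TPM, against 81.3, 84.9 and 37.0 TPM. All 9 genes were also called higher in the 4 h control than at 0 h and in R2G at 2 h of waterlogging than at 0 h, and 2 of them were called higher in flooded roots than in the 4 h control. A second run on the same linkage group, 8 genes between 698077 and 731374 (LOC105171387 to LOC105171587), summed to 5077, 7129 and 7224 TPM at 2 h, against 886, 747 and 915 at 0 h. Its gene LOC105171585 stood at 1519, 2535 and 2912 TPM, against 107, 103 and 49.6 TPM. Of these 8 genes, 7 were called higher in the 4 h control too. A run of 6 genes between 3146919 and 3166097 on linkage group 10 summed to 3233, 4474 and 4852 TPM at 2 h, against 1479, 1398 and 731 at 0 h. All 6 were called in the 4 h control as well, none was called between flooded roots at 2 h and that control, and LOC105171804 spans its neighbour LOC105171802, so that their values are uncertain.

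The run on linkage group 5, 9 genes between 18251100 and 18377933 (LOC105162912 to LOC105162921), behaved otherwise. Its summed TPM was 203, 428 and 1782 in the EG 2 h libraries, against 49.3, 13.5 and 11.0 at 0 h and 15.6, 11.0 and 13.9 in the 4 h control. All flooded libraries exceeded all control libraries, and replicate 3 held most of the flooded signal. LOC105162966 had 24.3, 97.3 and 451 TPM at 2 h, against 2.92, 1.60 and 0.677 TPM at 0 h, a log2 fold change of 5.33 (SE 0.90, limma adjusted p = 0.0025). LOC105162918 had 15.8, 46.6 and 222 TPM, against 1.44, 0.178 and 0.271 TPM, and LOC105162915 had 60.9, 105 and 472 TPM, against 17.3, 4.69 and 3.52 TPM. LOC105162966, with a span of 26773 bases, overlaps LOC105162915, and their reads may be shared in part. None of the 9 genes was called higher in the 4 h control than at 0 h, and all 9 were called higher in EG at 4 h of waterlogging than in the 4 h control. In R2G none rose and 2 fell at 2 h. All 9 remained called in EG without the EG 2 h replicate 3, and 7 did without replicate 2 of both groups.

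The course of the linkage group 5 run over the whole series went against its first hours. Its summed TPM averaged 805 at 2 h and 156 at 4 h of waterlogging in EG, and between 1.04 and 39.7 from 6 to 36 h. In the EG control it averaged 13.5 at 4 h, 1016 at 16 h, 1424 at 20 h and 5687 at 44 h. The R2G control reached 3119 at 44 h, while flooded R2G roots had 2.25, 9.41 and 2.91 at 2 h. High values of this run were thus not limited to flooded roots.

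**Figure D4:**
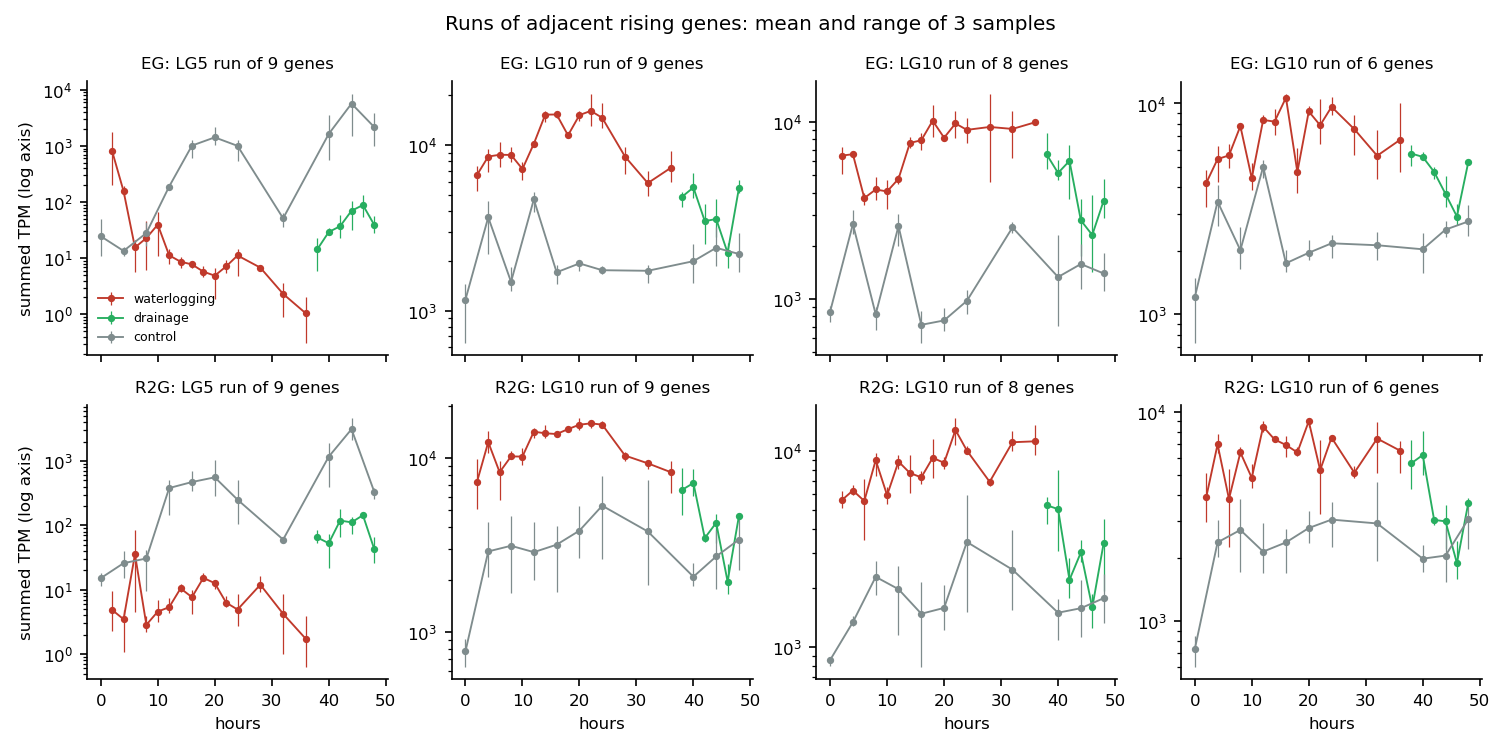
Summed TPM (log axis) over hours of the 4 longest runs of adjacent rising genes, in EG (upper row) and R2G (lower row), with points as means and bars as the range of 3 libraries. The linkage group 5 run is high in EG at 2 h of waterlogging and low from 6 h on, while control roots reach 5687 in EG and 3119 in R2G at 44 h; the 3 runs on linkage group 10 lie above control through most of the waterlogging.

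The genes called at 2 h were next followed in the matched comparison at 4 h, which shares no library with 2 h against 0 h. Between EG 4 h waterlogging and EG 4 h control, 1145 genes rose (6.3%) and 2878 fell (15.8%), 22.1% in all. Of the 1209 genes that rose at 2 h, 445 (36.8%) rose here and 32 fell. Of the 4788 genes that fell at 2 h, 1842 (38.5%) fell here and 38 rose. After median-ratio scaling the shares were 40.7% of the rising genes, where 10.1% of all genes rose, and 37.4% of the falling genes, where 10.3% fell. Of the stricter set, 258 of 344 rising and 1064 of 1307 falling genes were called in the same direction at 4 h. That set was chosen with the same 4 h control libraries, which lets their errors enter both counts. Between the flooded roots at 4 h and at 2 h, limma called 0 genes, with 3364 at an unadjusted p under 0.05. With the spread shared by all libraries of the series it called 689, with a replicate block 12, and without the EG 2 h replicate 3 it called 255. The median difference between 4 h and 2 h of waterlogging was -0.02 for the genes that had risen and -0.08 for those that had fallen.

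Later values of some genes did not follow a smooth course. GAPDH (LOC105156676) averaged 1298 TPM at 2 h, 2076 at 4 h and 2068 at 6 h of waterlogging, then 311 at 8 h, 1022 at 10 h, 175 at 12 h and 1702 at 14 h, with 198 to 384 TPM in the EG control over all hours. LOC105173722 averaged 3534 TPM at 6 h, 518 at 8 h, 2341 at 10 h, 418 at 12 h and 3904 at 14 h of waterlogging. Both genes were low at 8 and 12 h, when controls were sampled as well, and high at 6, 10 and 14 h, when they were not. At 4 h, when controls were sampled too, both were high. Not all rising genes were low at 8 and 12 h. In EG from 6 to 14 h, the linkage group 10 run of 9 genes averaged 8744, 8723, 7172, 10193 and 15281 summed TPM. The run of 6 genes averaged 5671, 7805, 4418, 8354 and 8201, and alternated the other way, higher at 8 and 12 h than at 6 and 10 h. In EG it then averaged 10650 at 16 h, 4727 at 18 h and 9164 at 20 h, and 18 h had no control. In R2G this run averaged 3895, 6978, 3830, 6386, 4832 and 8482 from 2 to 12 h, lower at the hours without controls. At 14 h, also without controls, it was not low in either genotype. The 2 h libraries also come from an hour without controls. No label records whether hours with and without controls differed in sampling or library preparation, and its part in these values was not tested. LOC105160267 remained at 2.85 to 67.3 TPM in flooded EG roots from 4 to 36 h, against 83.8 to 172 TPM in the EG control from 8 to 48 h.

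The genes called in EG were then followed over the same 2 h in the tolerant genotype. Between R2G at 2 h of waterlogging and R2G at 0 h, 1189 genes rose (6.54%) and 4082 fell (22.5%), 29% in all. After median-ratio scaling, 1962 rose and 1964 fell. These libraries are separate from those of EG. Of the 1209 genes that rose in EG, 681 (56.3%) rose in R2G and 19 fell. Of the 4788 genes that fell in EG, 2476 (51.7%) fell in R2G and 18 rose. With that scaling, 1222 of 2217 rising genes (55.1%) rose and 839 of 1789 falling genes (46.9%) fell in R2G, where 10.8% of all genes went each way. R2G has no 2 h control either, so the time of day is joined with water in both genotypes.

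Whether the change differed between the genotypes was tested by an interaction, the EG change minus the R2G change. It was called by limma for 1522 genes (8.37%), 663 with a higher (3.65%) and 859 with a lower value in EG (4.73%). Of the 5997 genes called in EG, 218 were called higher in EG, 527 lower in EG and 5252 not called. Of these 745 calls, 679 went in the direction of the EG change and 66 against it. The interaction uses the same EG libraries that chose these genes, which favours calls in that direction. The number of interaction calls changed with the libraries used. It was 275 without replicate 1, 276 without replicate 2 and 1286 without replicate 3 of the 4 groups, settings that leave fewer libraries in each group. When only the EG 2 h replicate 1, 2 or 3 was left out, it was 2166, 1379 and 1152. After median-ratio scaling the split was 880 higher and 689 lower in EG. Among the genes that rose in EG, the largest differences were those of LOC105162966, at 6.02 (SE 1.06), and LOC105162915, at 5.85 (SE 0.94), both of the linkage group 5 run. All 9 genes of that run were called in the interaction. Of them, 7, 0 and 7 were called without replicate 1, 2 or 3 of the 4 groups. When only the EG 2 h replicate 1, 2 or 3 was left out, 9, 8 and 9 were called.

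Several falls in EG were smaller in R2G or were replaced by a rise. LOC105175186 had 5.71, 4.66 and 2.07 TPM in EG at 2 h, against 50.2, 74.8 and 86.5 TPM at 0 h, while R2G had 100.3, 95.2 and 101 TPM at 2 h, against 78.9, 88.0 and 129 TPM at 0 h. The difference between the changes was -3.87 (SE 0.40, limma adjusted p = 9e-04). LOC105159842 (linkage group 4, 2721171 to 2722970) had 0.344, 0.711 and 1.22 TPM in EG at 2 h, against 9.03, 3.62 and 11.5 TPM at 0 h, and rose in R2G to 13.4, 35.1 and 41.6 TPM, against 2.52, 2.61 and 15.0 TPM at 0 h. The difference was -4.53 (SE 0.83). In this gene the EG 4 h control was higher than 0 h, at 55.2, 62.0 and 49.3 TPM, so that flooded and unflooded EG roots moved in opposite directions. LOC105160267 fell in both genotypes, to 30.1, 24.8 and 13.1 TPM in EG, against 488, 533 and 334 TPM at 0 h, and to 288, 241 and 318 TPM in R2G, against 489.8, 501 and 741 TPM at 0 h. Its difference of -3.29 was called. FAD2 (LOC105163532) rose in EG and fell in R2G, to 3.14, 5.97 and 1.99 TPM at 2 h, against 9.26, 12.8 and 6.52 TPM at 0 h, with a called difference of 2.58. By contrast LOC105173722, LOC105174592 and GAPDH differed between the genotypes by 0.16 (SE 0.35), -0.06 (SE 0.42) and 0.44 (SE 0.40), and none was called.

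**Figure D5:**
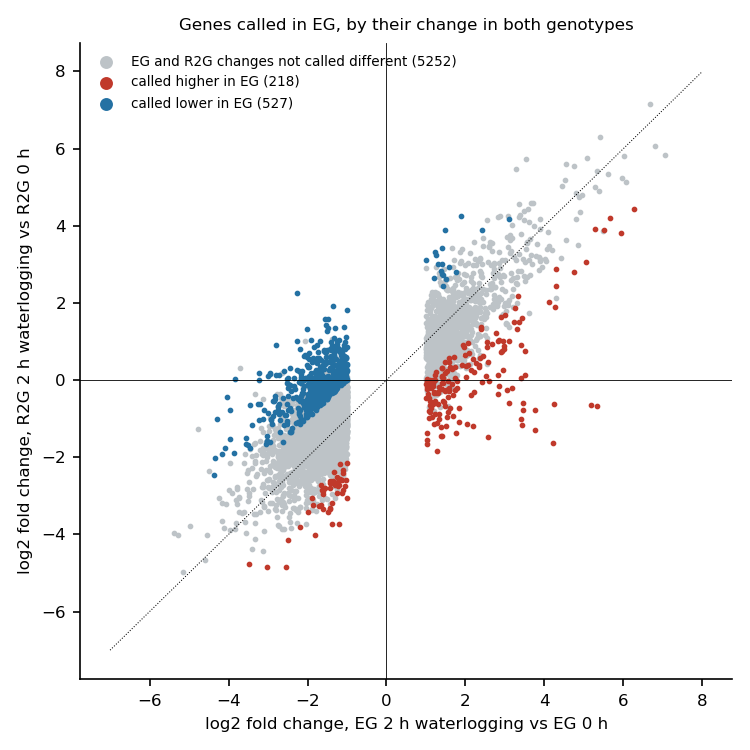
Log2 fold change at 2 h of waterlogging against 0 h in EG (x axis) and R2G (y axis) for the 5997 genes called in EG, with the dotted line marking equal changes. The 218 genes called higher in EG and the 527 called lower in EG are coloured, and 5252 are grey.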

How the data were processed

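Root RNA of 195 samples was sequenced. Per the paper's methods and the labels, the authors checked reads with FastQC, trimmed them with Trimmomatic 0.32, aligned them by STAR to version 1.0 of the sesame genome, took counts of uniquely placed reads from featureCounts, and deposited TPM. Whether strand was used in counting is not given in the sources used here. TPM keeps no depth, so no count test was run.

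Groups came from the sample labels. The tests were run in R 4.3.3 by limma 3.58.1, with lmFit and a trended eBayes, on log2(TPM + 1), two-sided, over 18178 genes with a mean of at least 1 TPM, using only the groups compared. This scale understates changes of weakly expressed genes. The script was tested on simulated data. Tables and figures used Python 3.11.15, pandas 2.3.3 and matplotlib 3.10.9.

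Alternatives were a pseudocount of 0.1, no filter, median-ratio scaling over the 16897 genes above 0 in all samples, a spread shared by all 195 samples, a replicate block and each replicate left out. Leaving out single EG 2 h libraries, the comparison of 4 h with 2 h of waterlogging, and the counts of called genes shared with other comparisons under each alternative were added after seeing the data.

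The members and lists were chosen with earlier results of these data known. Genes named without overlap of the groups were the 6 steepest in each direction, the 4 farthest from the midpoint in each direction within the stricter set, the 3 most abundant in each direction, and the 2 in each direction with the largest difference from R2G. All 15 genes with a descriptive name were added after the reference was seen. Planned lists by product name, protein signature or promoter motif were not run, as the reference used here holds none of these. Coordinates are those of RefSeq for S_indicum_v1.0, counted from 1.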

Additional observations from a re-analysis of the deposited data

Results flagged for a closer look

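The change at 2 h differed between EG and R2G, by the limma interaction, for 1522 genes. Among the genes that changed in EG, LOC105162966 differed by 6.02 and LOC105162915 by 5.85 on the log2 scale, both higher in EG. Neither was called without replicate 2 of the groups, a setting with 276 interaction calls in all. Both were called when only the EG 2 h replicate 3 was left out. LOC105159842 differed by -4.53 and LOC105175186 by -3.87, both lower in EG. These genes were chosen with EG libraries that the interaction also uses, which favours large differences. The first pair are overlapping genes of the linkage group 5 run, in which the EG 2 h replicate 3 held most of the signal.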

How the results depend on the processing

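No alternative turned the direction of a named gene that was called, but this was settled beforehand. The TPM ranges of these genes did not overlap between the groups, so leaving out libraries could not turn them. Median-ratio scaling raises changes by less than the call threshold of 1. Of the named genes not called, AP3, DGAT1, PPO and the peroxidase LOC105177799 changed sign after median-ratio scaling, to 0.05, 0.47, 0.04 and 0.29. DGAT1 also did so without replicate 1 (0.02) and without the EG 2 h replicate 1 alone (0.03), and PPO without replicate 3 (0.25). Among named genes, 439 recomputed log2 fold changes kept their side of the threshold, 8 lost the call and 4 gained one. Over the counts, 111 recomputed values lay within 1.5 times the reported value and 12 did not.

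Called genes at 2 h against 0 h numbered 6914 with a pseudocount of 0.1, 6255 with no filter, 4006 after median-ratio scaling, 6099 with the shared spread, and 4507 to 7273 with a replicate left out. Genes shared with the 4 h control numbered 1542 to 2520. Against the 4 h control the count was 856 to 4135 with a replicate or single EG 2 h library left out, the interaction 275 to 2166, the stricter set 521 to 2271 and, without the EG 2 h replicate 1, 2502, against 1651 reported. Genes shared with R2G were 3157 of the 5997 called in EG as deposited, and 2061 of 4006 after median-ratio scaling. For 4 h against 2 h of waterlogging, 0 became 689 with the shared spread, 12 with the replicate block, and 0 to 255 with single EG 2 h libraries left out, with 2 called without replicate 1. The causes were not tested.

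With the replicate number as a block, 6024 genes were called at 2 h against 0 h. Same-numbered libraries of these groups did not deviate together (r = -0.04, -0.21 and -0.14), so the numbers were not taken to pair them.

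With 3 libraries a group, these tests miss small changes, and TPM gives no depth for weak genes.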
